A study of Mus musculus with 6 samples.

Results

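The anaphase-promoting complex, or APC/C, is the ubiquitin ligase that marks mitotic proteins for destruction, and 10 genes that surround it were followed here in a mouse colorectal tumor line and in a mutant of that line. They were Cdc20 and Fzr1, which activate the complex, Fbxo5, which inhibits it, Ube2c and Ube2s, which supply it with ubiquitin, Ccna2, Ccnb1, Ccnb2 and Pttg1, which encode proteins it destroys, and Foxm1, a transcription factor of dividing cells. The genes were chosen by symbol, with earlier results of these data known. All 10 were found among the 24346 symbols listed in the deposited tables. The parental line was CT26.mMR1, made by retroviral transduction of mouse MR1, an antigen-presenting molecule, into the colorectal tumor line CT26. The sample titles of both lines carry the mark cl9, whose meaning the labels do not give, so whether the parental cells were themselves a clone is not known. M8 came from these cells after exposure to the mutagen ENU (N-ethyl-N-nitrosourea) and carries the same MR1 transgene. It was grown out by limiting dilution and screened for MR1 on the cell surface, so M8 is 1 clone, and what clonal growth alone changes cannot be told apart from what the mutagen changed. RNA of 3 samples of each line was sequenced as poly(A)-selected, stranded libraries, and the values were deposited as FPKM, which are corrected for transcript length and for the number of mapped fragments in a library. The comparison of M8 with parental cells was made in the study to find genes with altered expression in a mutant that more strongly stimulated a reporter line for MAIT cells, T cells that recognize small metabolites on MR1.

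Estimated depth was lower in M8 than in parental cells. Relative to parental replicate 1, it was 0.948 to 1.072 in the parental libraries and 0.772 to 0.875 in the M8 libraries. It was read from the commonest ratio to parental replicate 1 among genes below 0.15 FPKM in both libraries, taken to mean equal read counts. In each of the other libraries, 18.4% to 22.4% of these genes lay at that ratio. Absolute depth is unknown, since FPKM values carry no counts. Between 13747 and 14357 symbols had a value above 0 in a library. Mr1 stood at 1046 to 1139 FPKM in parental cells and at 1034 to 1095 FPKM in M8, so that the ranges overlapped. The labels give the tissue as colon, but Epcam, Cdh1, Krt19 and Cdx2, defining genes of colon epithelium, were listed at 0 in all 6 libraries, and 2 of 9 epithelial markers, Krt18 and Krt20, had a mean of at least 1 FPKM (summed level of the 9 markers 39.7 to 56.4 FPKM in parental libraries, 47.5 to 49.3 FPKM in those of M8). Fibroblast markers were high, with 6 of 7 at a mean of at least 1 FPKM, and their summed level, most of it Vim and Col1a2, was 2363 to 2779 FPKM in parental cells and 2574 to 2666 FPKM in M8, with Thy1 at 0. Among the markers of both lists with a mean of at least 1 FPKM, the M8 libraries lay below all parental ones for Krt20 (10.8 to 12.7 against 15.1 to 19.8 FPKM), Pdgfra (2.09 to 2.63 against 3.14 to 3.63 FPKM), Col1a2 (456 to 475 against 477 to 505 FPKM) and Dcn (11.9 to 15.7 against 16.6 to 20.8 FPKM), and above them for Pdgfrb (24.2 to 26.4 against 20.6 to 22.2 FPKM) and Col1a1 (90.7 to 97.6 against 87.5 to 89.3 FPKM), genes singled out after their values were seen. Their part in the differences of the 10 genes was not tested. None of 6 leukocyte and 3 endothelial markers had a mean of 1 FPKM, and their summed levels stayed at or below 0.567 and 0.0524 FPKM.

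The APC/C attaches ubiquitin chains to its targets, and the proteasome then degrades them. Cdc20 activates the complex in mitosis once the spindle checkpoint, which holds Cdc20 back until every chromosome is attached to the spindle, is satisfied, and the loss of securin and the B-type cyclins that follows releases the sister chromatids and ends mitosis. Fzr1, whose protein is also called Cdh1 but is unrelated to the cadherin gene of that symbol, takes over as activator from late mitosis until the next round of DNA replication, when Fbxo5, also called Emi1, blocks the complex so that cyclins can build up again. The mRNAs of most of these genes are themselves made mainly from late S phase to mitosis, under B-Myb and FoxM1, with NF-Y bound at CCAAT boxes and MuvB complexes bound at an element called CHR, so their level in a culture also depends on how many cells are dividing.

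All 10 genes were higher in M8 than in parental cells, by 1.12 to 1.59 times in mean FPKM. Each passed the test used throughout, limma on log2(FPKM + 1) over the 10597 genes with a mean of at least 1 FPKM at an adjusted p below 0.1, which called 21.2% of all genes tested as higher in M8. None of the 10 was lower, against 16.5% of all genes tested. For each of them the 3 M8 values lay above the 3 parental values, as for 24.8% of all genes tested, while 20.4% of all genes tested showed the opposite order. Cdc20 and Ccnb1 were at least 1.5 times as high in M8 by mean FPKM, which 0.689% of all genes tested reached among those called higher. The median log2 difference of the 10 genes was 0.49, from 0.16 for Pttg1 to 0.66 for Cdc20, whereas the median of all genes tested was 0.0069. Of the 10, 5 were within the highest 1% of differences among the genes tested and 8 within the highest 5%. Because the genes were chosen with earlier results of these data known, these shares describe them and are not a test. Bulk RNA cannot tell more cells in a phase of the cycle from more RNA per cell.

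**Figure D1:**
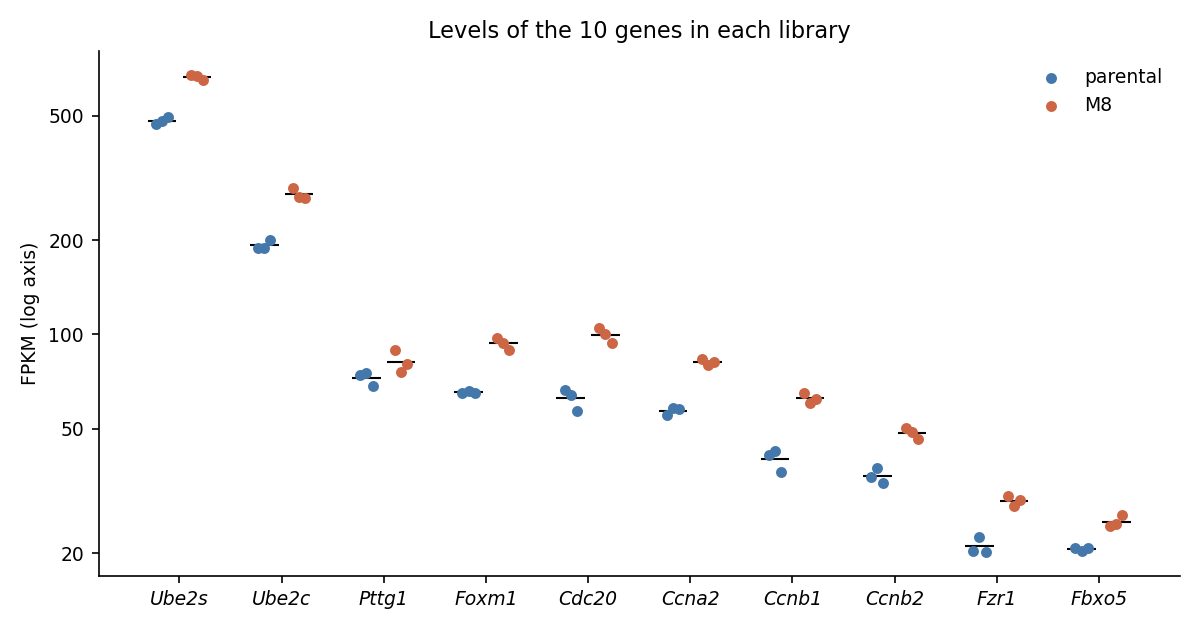
FPKM (log axis) of the 10 genes in the 3 parental (blue) and 3 M8 (orange) libraries, in order of their level in parental cells, with a bar at the mean of each line. The points run in the order of replicates 1 to 3, and for every gene the lowest M8 point lies above the highest parental point, with the narrowest gap for Pttg1.

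Because FPKM is a level per transcript length, the genes can be ordered by it. In parental cells the order was Ube2s, Ube2c, Pttg1, Foxm1, Cdc20, Ccna2, Ccnb1, Ccnb2, Fzr1 and Fbxo5. The replicates of neighbours overlapped between Foxm1 and Cdc20, Cdc20 and Ccna2, Ccnb1 and Ccnb2, and Fzr1 and Fbxo5, although Ccnb1 was above Ccnb2 within each library. The order in M8 was Ube2s, Ube2c, Cdc20, Foxm1, Ccna2, Pttg1, Ccnb1, Ccnb2, Fzr1 and Fbxo5, with overlap between Cdc20 and Foxm1 and between Ccna2 and Pttg1. Pttg1 lay above Foxm1 in parental cells without overlap, and its mean in M8 was below those of Foxm1, Cdc20 and Ccna2, overlapping with Ccna2.

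The stretches just upstream of these genes are shown because several of them carry the elements through which mitotic genes are known to be switched on together. RefSeq promoter windows, from 250 bases before to 50 bases after a gene start on GRCm38.p6 (mm10), were found for 8 of the 10 genes, and Ccna2 and Foxm1 had none. CCAAT (or ATTGG on the other strand), the box that NF-Y binds, and TTTGAA (or TTCAAA), a core of the CHR, were searched on both strands. Matches on opposite strands that share bases were counted separately. The following are the 120 bases before the start of 6 genes, 5′ to 3′ on the strand of the gene, with both motifs in capitals. Cdc20 lies at chr4:118437344-118437463 (minus strand), Ube2c at chr2:164769809-164769928 (plus strand), Ccnb2 at chr9:70421555-70421674 (minus strand), Fbxo5 at chr10:5805466-5805585 (minus strand), Ccnb1 at chr13:100786487-100786606 (minus strand) and Ube2s, shown as a gene without either motif, at chr7:4812341-4812460 (minus strand).
Cdc20: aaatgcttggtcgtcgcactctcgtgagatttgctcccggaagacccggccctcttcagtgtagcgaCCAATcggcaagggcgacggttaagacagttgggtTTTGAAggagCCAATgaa
Ube2c: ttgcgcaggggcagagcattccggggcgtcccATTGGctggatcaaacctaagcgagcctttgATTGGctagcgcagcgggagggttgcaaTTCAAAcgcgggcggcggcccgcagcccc
Ccnb2: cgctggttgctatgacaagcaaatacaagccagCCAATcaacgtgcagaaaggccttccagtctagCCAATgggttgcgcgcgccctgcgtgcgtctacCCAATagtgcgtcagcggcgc
Fbxo5: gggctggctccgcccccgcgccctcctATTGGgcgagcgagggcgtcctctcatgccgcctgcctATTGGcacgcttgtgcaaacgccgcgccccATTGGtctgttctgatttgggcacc
Ccnb1: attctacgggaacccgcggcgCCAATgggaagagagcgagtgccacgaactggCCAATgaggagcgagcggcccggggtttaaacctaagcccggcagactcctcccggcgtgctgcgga
Ube2s: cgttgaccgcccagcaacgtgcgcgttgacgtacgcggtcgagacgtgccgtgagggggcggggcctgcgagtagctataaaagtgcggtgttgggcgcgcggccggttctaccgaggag

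Of the 8 windows, 6 held at least 1 CCAAT, 5 held at least 2, and 4 held the CHR core. Among all 32851 windows the shares were 37.4%, 11.7% and 17.9%. The 4 genes with the CHR core, Cdc20, Ube2c, Ccnb2 and Fbxo5, each had at least 2 CCAAT matches as well, a combination found in 2.09% of all windows. The CHR core began 18 bases before the start in Cdc20 and 29 bases before it in Ube2c. It lay after the start in Fbxo5, and on both sides of it in Ccnb2, so that the printed bases of these 2 genes show no CHR core. Neighbouring CCAAT matches within the printed bases began 30 to 45 bases apart, and 5 of the 7 steps were of 30 to 33 bases. Ccnb1 held 2 CCAAT matches and no CHR core, Fzr1 held 1 CCAAT, and neither motif was found in the windows of Ube2s and Pttg1. The window of Pttg1 belongs to a start inside the annotated span of the gene. A match is a string of letters and not a bound site, and the absence of these letters says nothing about the factors.

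**Figure D2:**
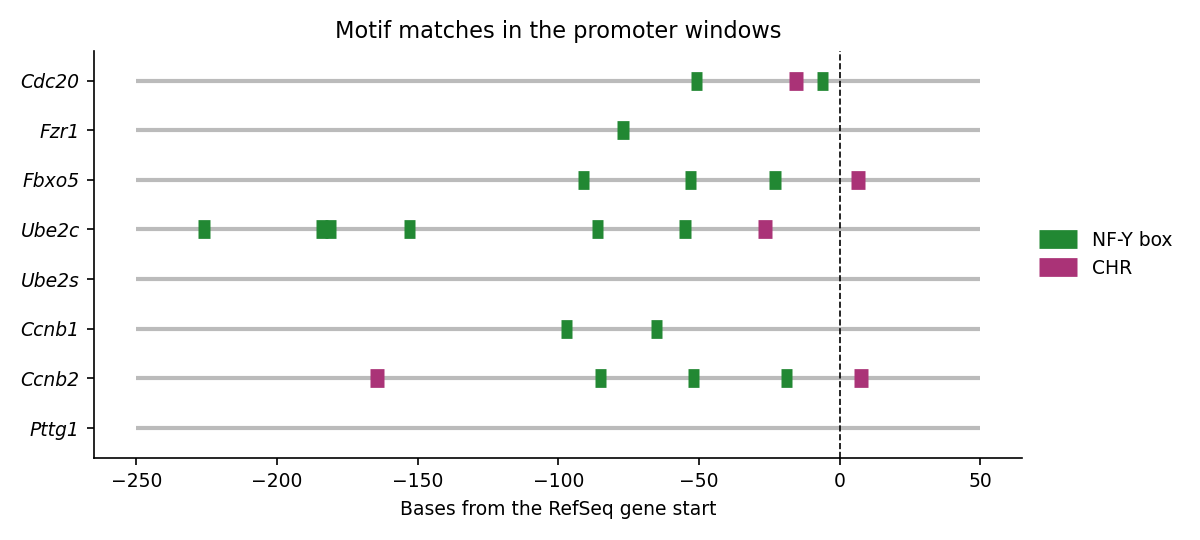
Position of CCAAT (NF-Y box, green) and TTTGAA (CHR, purple) matches on either strand, in bases from the RefSeq gene start (dashed line), in the promoter windows of 8 of the 10 genes. Cdc20, Fbxo5, Ube2c and Ccnb2 hold both kinds of match, Ccnb1 and Fzr1 hold CCAAT alone, and Ube2s and Pttg1 hold neither.

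The number of motifs did not order the 8 genes by their difference between the lines. Ube2s, without either motif, had a log2 difference of 0.47, and Fbxo5, with 3 CCAAT matches and a CHR core, had 0.28. In the other direction, Pttg1, also without either motif, had the smallest difference (0.16). Cdc20, with 2 CCAAT matches and a CHR core, had the largest (0.66). Across the other genes of the tables, 188 tested genes had a window with a CHR core and at least 2 CCAAT matches, and 69 of them (36.7%) were higher in M8 and 12.2% lower, with a median log2 difference of 0.043. Of the 7971 tested genes whose windows did not combine them, 21.0% were higher and 16.5% lower, with a median of 0.0074. Within those, the 1225 genes with at least 2 CCAAT matches in a window were higher in 19.6%, and the 947 genes with a CHR core in 23.2%. These counts were made after the values were seen and were not tested.

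Of the activators, Cdc20 (chr4:118432901-118437343, minus strand) had the largest difference of the 10 genes. Its level was 66.7, 64.3 and 57.1 FPKM in parental replicates 1 to 3 and 105, 100.01 and 93.7 FPKM in the M8 replicates. The highest parental library and the lowest M8 library were thus well apart. The mean rose from 62.7 ± 4.98 to 99.5 ± 5.55 FPKM (SD, n = 3 each), 1.59 times, with a log2 difference of 0.66 (standard error 0.0632, 95% interval 0.52 to 0.80, limma adjusted p = 0.000261). Only 38 of the genes tested had a larger log2 difference in favor of M8. Elovl1, a fatty acid elongase gene on the opposite strand that shares 53 bases with Cdc20, was also higher, from 49.2 ± 0.798 to 58.2 ± 2.43 FPKM (SD, n = 3 each; log2 difference 0.24, standard error 0.0434, limma adjusted p = 0.00414). Whether reads were assigned by strand is not given in the sources used here, so reads in the shared bases could have gone to either gene. A transcript similar to Cdc20, Gm7856, is 93.7% identical over 1512 bases and is not listed in the tables.

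Fzr1 (chr10:81366879-81378370, minus strand), the activator that works after Cdc20, was lower in level but rose too. Parental replicates 1 to 3 held 20.3, 22.5 and 20.2 FPKM, and M8 replicates 1 to 3 held 30.6, 28.3 and 29.5 FPKM. No parental library came within 5 FPKM of an M8 library. The mean changed from 21.0 ± 1.32 to 29.5 ± 1.14 FPKM (SD, n = 3 each), 1.40 times, which was a log2 difference of 0.47 (standard error 0.0553, 95% interval 0.35 to 0.59, limma adjusted p = 0.000693). No near-identical copy of Fzr1 was found, and no gene of the tables overlapped it.

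Within each library the FPKM of Cdc20 was 3.29, 2.85 and 2.83 times that of Fzr1 in parental cells and 3.43, 3.54 and 3.17 times in M8. Parental replicate 1 exceeded M8 replicate 3, so the lines overlapped. Differences of log2 ratios, here and for the other ratios, were taken on FPKM + 1. That of Cdc20 to Fzr1 was 0.19 (exact two-sided permutation test, p = 0.2, n = 3 each, also 0.2 after Benjamini-Hochberg adjustment over 7 ratios). With 3 samples of each line this test cannot give a p below 0.1, so it could not have passed a threshold of 0.1 for any ratio. The log2 difference between lines was 0.15 to 0.26 when each library was left out in turn.

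Fbxo5 (chr10:5799158-5805465, minus strand), the inhibitor, had a smaller difference than either activator. It stood at 20.8, 20.3 and 20.8 FPKM in parental replicates 1 to 3 and at 24.5, 24.8 and 26.4 FPKM in M8. The parental libraries were almost level and all lay below M8. The mean went from 20.6 ± 0.262 to 25.2 ± 1.04 FPKM (SD, n = 3 each), 1.22 times, with a log2 difference of 0.28 (standard error 0.0465, 95% interval 0.17 to 0.38, limma adjusted p = 0.00292). Relative to Fzr1, Fbxo5 was 1.02, 0.901 and 1.03 in parental cells and 0.802, 0.876 and 0.895 in M8, lower in all 3 M8 libraries (log2 difference -0.19; exact two-sided permutation test, p = 0.1, adjusted 0.117, n = 3 each). Fbxo5 has 3 similar transcripts elsewhere, at 91.2% to 94.0% identity, 1 of them assigned to Glcci1, which had a mean of 4.22 FPKM.

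Ube2c and Ube2s, the ubiquitin-conjugating enzymes of the APC/C, were the most abundant of the 10 transcripts. Ube2c (chr2:164769929-164772902, plus strand), which places the first ubiquitins on a target, was measured at 189, 189 and 200.1 FPKM in parental replicates 1 to 3 and at 293, 274 and 273 FPKM in M8. The lines were separated by more than the range within either. The mean rose from 193 ± 6.53 to 280.1 ± 11.6 FPKM (SD, n = 3 each), 1.45 times (log2 difference 0.54, standard error 0.0443, 95% interval 0.44 to 0.64, limma adjusted p = 0.000163). Both transcripts found to resemble Ube2c, Gm8956 and AC151284.1, are not listed in the tables.

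Ube2s (chr7:4808014-4812340, minus strand), which lengthens the chain, was the highest of all. The libraries held 471, 479 and 494 FPKM in parental replicates 1 to 3 and 676, 670.0 and 650.3 FPKM in M8. The mean changed from 481 ± 11.8 to 665 ± 13.4 FPKM (SD, n = 3 each), 1.38 times, a log2 difference of 0.47 (standard error 0.0386, 95% interval 0.38 to 0.55, limma adjusted p = 0.000163). The smallest M8 value was thus 156 FPKM above the largest parental value. The ratio of Ube2c to Ube2s was 0.402, 0.394 and 0.405 in parental cells and 0.434, 0.409 and 0.419 in M8. It was higher in all 3 M8 libraries but by little (log2 difference 0.071; exact two-sided permutation test, p = 0.1, adjusted 0.117, n = 3 each).

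The cyclins, which bind and switch on CDK kinases, rose together. Ccna2 (chr3:36564865-36573038, minus strand), the cyclin of S phase and early mitosis, had 55.4, 58.1 and 57.6 FPKM in parental replicates 1 to 3 and 83.7, 80.0 and 81.9 FPKM in M8. Both lines were tight, at 57.0 ± 1.39 and 81.9 ± 1.87 FPKM (SD, n = 3 each), with 22.0 FPKM between the nearest libraries of the lines. The mean ratio was 1.44 and the log2 difference 0.51 (standard error 0.0398, 95% interval 0.43 to 0.60, limma adjusted p = 0.000163). Exosc9, an exosome gene on the opposite strand that shares 863 bases with Ccna2, overlapped between the lines, with 32.5 ± 2.33 FPKM in the parental line against 31.7 ± 1.94 in M8 (SD, n = 3 each; log2 difference -0.032, limma adjusted p = 0.731). As with Cdc20 and Elovl1, reads in the bases shared by Ccna2 and Exosc9 could have gone to either gene.

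Ccnb1 (chr13:100778739-100786486, minus strand), the main cyclin partner of Cdk1 at entry into mitosis, had the largest difference of the cyclins. Its level was 41.3, 42.3 and 36.4 FPKM in parental replicates 1 to 3 and 65.1, 60.6 and 62.4 FPKM in M8. Parental replicate 3 was the lowest of the 6 libraries. The mean rose from 40.0 ± 3.16 to 62.7 ± 2.28 FPKM (SD, n = 3 each), 1.57 times (log2 difference 0.64, standard error 0.0594, 95% interval 0.50 to 0.77, limma adjusted p = 0.000242). Ccnb1 has 5 similar transcripts elsewhere in the mouse annotation, the closest, Ccnb1-ps, 99.2% identical over 1287 bases. None of these 5 is listed in the tables, so how their reads were assigned is uncertain.

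Ccnb2 (chr9:70407689-70421554, minus strand), the second B-type cyclin, was found at 35.1, 37.4 and 33.6 FPKM in parental replicates 1 to 3 and at 50.3, 49.0 and 46.4 FPKM in M8. Its mean rose from 35.4 ± 1.90 to 48.6 ± 1.99 FPKM (SD, n = 3 each), 1.37 times, with a log2 difference of 0.45 (standard error 0.0517, 95% interval 0.33 to 0.56, limma adjusted p = 0.000644). All 3 M8 libraries lay above the parental ones. Summed over the 3 cyclins, the level was 128 to 138 FPKM in parental cells and 189.5 to 199 FPKM in M8.

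The level of Ccnb1 was also set against that of its partners within each library, with log2 differences taken on FPKM + 1. The FPKM ratio of Ccnb1 to Ccnb2 was 1.18, 1.13 and 1.08 in parental cells and 1.29, 1.24 and 1.34 in M8, a log2 difference of 0.19. Relative to Cdk1 it was 0.924, 0.951 and 0.784 in parental cells and 1.09, 1.01 and 1.04 in M8, a log2 difference of 0.24. Ccna2 relative to Ccnb1 was 1.34, 1.37 and 1.58 in parental cells and 1.29, 1.32 and 1.31 in M8, a log2 difference of -0.12. In each of these ratios the 3 M8 libraries lay on the same side of the 3 parental ones (exact two-sided permutation tests, p = 0.1 and adjusted 0.117 for each, n = 3 each). Parental replicate 3, the library with the lowest Ccnb1, set much of the last 2 differences, which were 0.15 and -0.05 without it.

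Pttg1 (chr11:43420244-43427463, minus strand), which encodes securin, the inhibitor of separase that the APC/C destroys at the onset of anaphase, had the smallest difference of the 10 genes. It was measured at 74.3, 75.6 and 68.3 FPKM in parental replicates 1 to 3 and at 89.1, 75.9 and 80.2 FPKM in M8. The lowest M8 library exceeded the highest parental library by 0.373 FPKM, so the lines barely separated. The mean changed from 72.7 ± 3.86 to 81.7 ± 6.70 FPKM (SD, n = 3 each), 1.12 times (log2 difference 0.16, standard error 0.0628, 95% interval 0.023 to 0.31, limma adjusted p = 0.0789). This call was lost without parental replicate 3 (log2 difference 0.12, limma adjusted p = 0.201), without M8 replicate 1 (0.10, adjusted p = 0.259) and without M8 replicate 3 (0.18, adjusted p = 0.127), as well as with other scalings. Relative to Espl1, which encodes separase, Pttg1 was 4.83, 5.21 and 5.11 in parental cells and 4.66, 4.0 and 4.35 in M8. Every M8 library was lower (log2 difference -0.20 on FPKM + 1, exact two-sided permutation test, p = 0.1, adjusted 0.117, n = 3 each).

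Foxm1 (chr6:128362994-128375886, plus strand), a transcription factor of genes expressed at entry into mitosis, rose by about as much as the cyclins. Its level was 65.2, 66.1 and 65.0 FPKM in parental replicates 1 to 3 and 97.2, 94.0 and 89.5 FPKM in M8. The parental libraries differed by about 1 FPKM, and the M8 libraries by about 8 FPKM. The mean rose from 65.4 ± 0.568 to 93.6 ± 3.89 FPKM (SD, n = 3 each), 1.43 times, a log2 difference of 0.51 (standard error 0.042, 95% interval 0.41 to 0.60, limma adjusted p = 0.000163). Tex52, on the same strand, shares 377 bases with Foxm1 and is not listed in the tables.

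**Figure D3:**
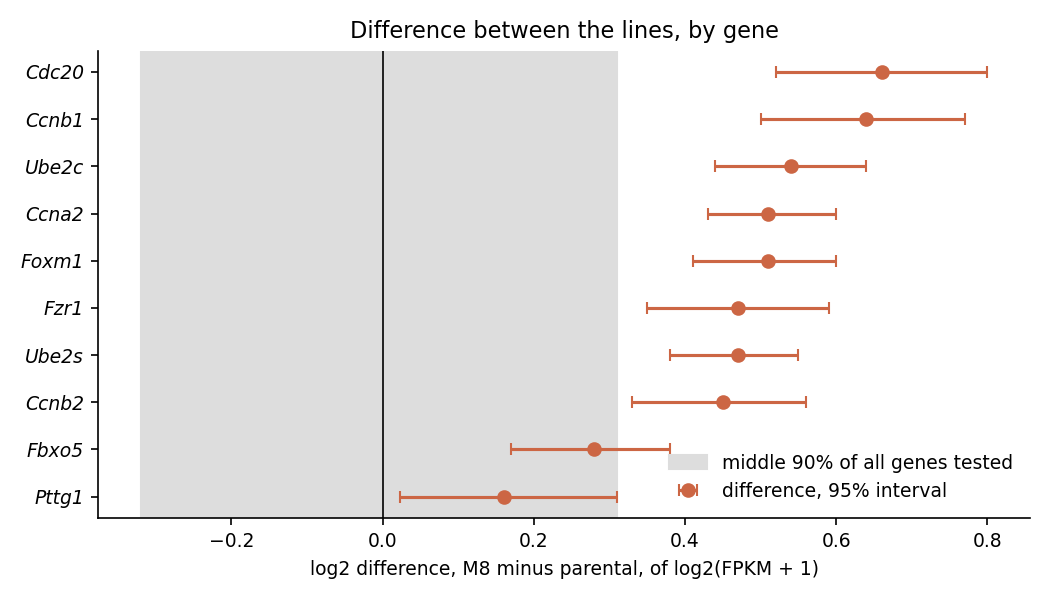
Log2 difference, M8 minus parental, of log2(FPKM + 1) for each of the 10 genes (point) with its 95% interval (bar), beside the band that holds the middle 90% of all 10597 genes tested, from -0.32 to 0.31. Fbxo5 and Pttg1 lie inside the band and the other 8 genes to the right of it.

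Among the M8 libraries, replicate 1 was the highest for 9 of the 10 genes, Fbxo5 being the exception, whereas it was the highest for 36.2% of all genes tested. The lowest M8 library was replicate 3 for 5 genes and replicate 2 for 4. In parental cells replicate 2 was the highest for 6 of the 10 genes, against 30.3% of all genes tested. The source of these differences between replicates was not tested.

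**Figure D4:**
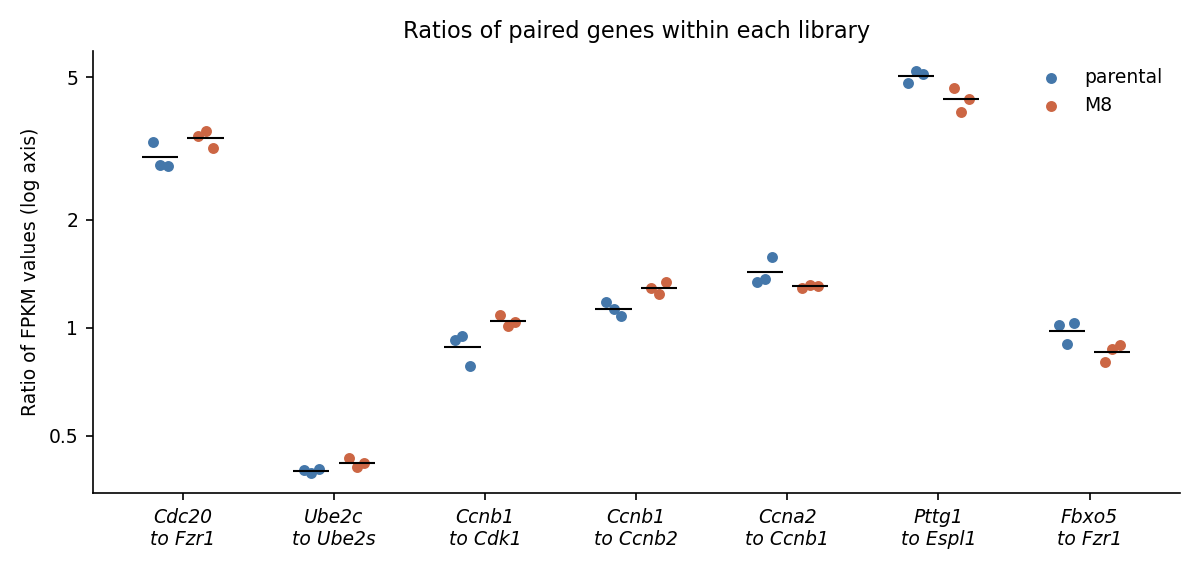
Ratio of the FPKM values of 2 genes within each library (log axis), for 3 parental (blue) and 3 M8 (orange) libraries, with a bar at the mean of each line. The lines overlap for Cdc20 to Fzr1, M8 lies higher for Ube2c to Ube2s, Ccnb1 to Cdk1 and Ccnb1 to Ccnb2, and it lies lower for Ccna2 to Ccnb1, Pttg1 to Espl1 and Fbxo5 to Fzr1.

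The lists of related genes that follow were also chosen with earlier results of these data known. The subunits of the APC/C itself showed smaller differences than its activators and enzymes. Of 14 subunit genes, 6 were higher in M8 and none was lower, or 4 and 1 with quantile or upper-quartile scaling, and the median log2 difference was 0.10. Among all genes tested 21.2% were higher and 16.5% lower. The largest difference was that of Anapc15, a subunit that helps to turn over the checkpoint complex, at 19.5, 18.9 and 18.6 FPKM in parental cells and 24.5, 23.9 and 22.4 FPKM in M8 (log2 difference 0.30, standard error 0.0493, limma adjusted p = 0.00289). Anapc5, a scaffold subunit, followed with a log2 difference of 0.29 (limma adjusted p = 0.00164). Of 12 spindle checkpoint genes, which restrain Cdc20, 8 were higher (5 with upper-quartile scaling) and none lower, against 21.2% higher among all genes tested, with a median of 0.19. Bub1b, which encodes the BubR1 component of the inhibitory complex, rose from 32.7 ± 1.2 to 42.7 ± 1.65 FPKM (SD, n = 3 each; log2 difference 0.37, limma adjusted p = 0.000917), and Mad1l1 by 0.28 on the log2 scale (limma adjusted p = 0.00264). Mad2l1, a gene for a checkpoint protein that binds Cdc20, was at 45.5, 47.1 and 44.6 FPKM in parental cells and at 51.6, 51.9 and 51.4 FPKM in M8, a log2 difference of 0.17 (standard error 0.0398, limma adjusted p = 0.012).

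Other mitotic substrates of the APC/C were nearly all higher, where 21.2% of all genes tested were higher and 16.5% lower. Of 13 such genes 12 were higher in M8, the median log2 difference was 0.36, and Ckap2, chosen after its values were seen, was the gene not called (0.047, limma adjusted p = 0.435). Plk1, a mitotic kinase, was at 38.3, 40.5 and 34.3 FPKM in parental cells and at 67.0, 63.0 and 59.7 FPKM in M8 (log2 difference 0.73, standard error 0.0655, limma adjusted p = 0.000206). Aurka, the kinase of the spindle poles, was at 42.0, 43.0 and 43.8 FPKM in parental cells and at 68.9, 70.3 and 66.0 FPKM in M8 (0.66, standard error 0.0415, limma adjusted p = 6.1e-05). These exceeded or matched the largest differences among the 10 genes. Of 7 substrates that act around S phase 4 were higher and none lower, against the same 21.2% and 16.5%, with a median of 0.15. Dbf4, the activator of a replication kinase, had a log2 difference of 0.36 (limma adjusted p = 0.000445) and Tk1, thymidine kinase, of 0.31 (limma adjusted p = 0.00145), while Gmnn and Cdc6, chosen after their values were seen, had -0.049 and -0.10 and were not called.

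Cdk1, the kinase that the B-type cyclins activate, was at 44.7, 44.5 and 46.4 FPKM in parental cells and at 59.7, 59.9 and 60.1 FPKM in M8 (log2 difference 0.40, standard error 0.0386, limma adjusted p = 0.000267). Of the 11 genes of Cdk1 and its regulators 5 were higher, against 21.2% of all genes tested, led by the small Cdk-binding protein gene Cks2 (0.46, limma adjusted p = 0.000163). The 1 lower gene (2 were lower with TPM or upper-quartile scaling), Pkmyt1, chosen after its values were seen, encodes an inhibitory kinase of Cdk1 and had a log2 difference of -0.20 (limma adjusted p = 0.0176). Of 10 separase and cohesin genes 5 were higher and 1, Stag2, chosen after its values were seen, was lower, with a median of 0.10, against 21.2% higher and 16.5% lower among all genes tested. The higher genes numbered 3 with TPM and 2 with upper-quartile scaling. Espl1 rose from 14.4 ± 1.0 to 18.8 ± 0.373 FPKM (SD, n = 3 each; log2 difference 0.37, limma adjusted p = 0.00225), and the cohesin ring gene Rad21 by 0.23 on the log2 scale (limma adjusted p = 0.00213). Without M8 replicate 1, and likewise without M8 replicate 2, the higher separase and cohesin genes numbered 3.

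Known regulators of such promoters, and relatives of the 10 genes, were also counted, beside the 21.2% higher and 16.5% lower among all genes tested. Of 14 genes for B-Myb, MuvB and E2F factors, 3 were higher and 2 lower, shares near those of all genes, with a median log2 difference of -0.0088. E2f4 had the largest rise (0.31, limma adjusted p = 0.000857) and Rbl2, a pocket protein found with MuvB in resting cells, the largest fall (-0.24, limma adjusted p = 0.0198). Mybl2, which encodes B-Myb and was chosen after its values were seen, was among the 3 higher genes (0.20, limma adjusted p = 0.0131). The lower genes numbered 1 when parental replicate 2 or 3 or any of the M8 replicates was left out. Of 27 other ubiquitin-conjugating enzymes, 6 were higher, again near the share of all genes, and 3 lower, with a median of 0.023, but the lower genes outnumbered the higher ones with TPM (4 higher, 5 lower), quantile normalization (2 and 4) and upper-quartile scaling (4 and 7). The extremes were Ube2j2 (0.34, limma adjusted p = 0.0309) and Ube2b (-0.27, limma adjusted p = 0.00264). Without M8 replicate 2 the higher enzymes numbered 3. Of 19 other cyclins 17 were tested, with Ccna1 and Ccnb3, also named after their values were seen, listed at 0 in all libraries, and 3 were higher and 6 lower, or 1 and 7 with quantile normalization and 1 and 9 with upper-quartile scaling, with a median of -0.07. Ccnf, the cyclin F of G2 phase, was at 14.1, 17.3 and 16.1 FPKM in parental cells and at 22.3, 21.2 and 23.2 FPKM in M8 (log2 difference 0.47, standard error 0.0716, limma adjusted p = 0.00201). Ccne2, the cyclin E2 of entry into S phase, was at 7.58, 7.04 and 7.01 FPKM in parental cells and at 5.27, 4.79 and 5.05 FPKM in M8 (-0.44, standard error 0.0643, limma adjusted p = 0.00163).

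**Figure D5:**
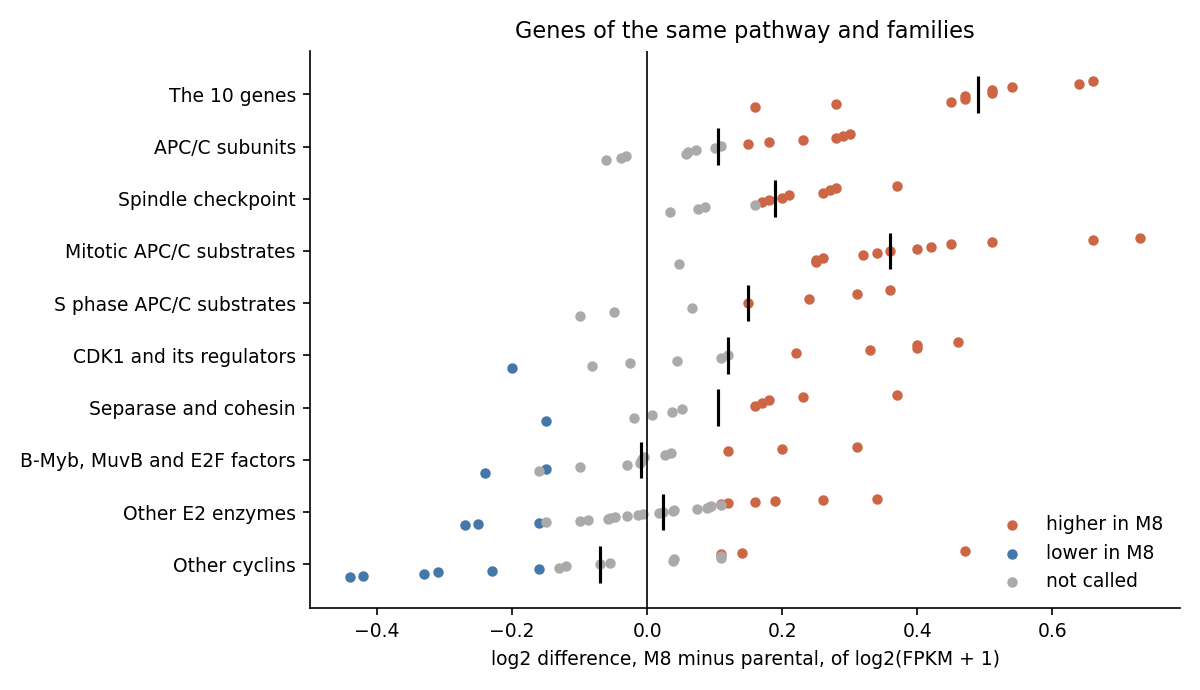
Log2 difference, M8 minus parental, of log2(FPKM + 1) for the 10 genes and for the tested genes of 9 related lists, with orange for higher in M8, blue for lower and grey for not called, and a bar at each median. The medians are 0.49 for the 10 genes and 0.36 for the mitotic substrates, and -0.0088 and -0.07 for the B-Myb, MuvB and E2F factors and the other cyclins.

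The genes whose pattern over the 6 libraries was most like that of Cdc20, by Pearson's r of log2(FPKM + 1) among 8546 genes with a mean of at least 5 FPKM, were Gemin5, Hnrnpm, Hgh1, Chd3 and Ttpal, with r from 0.9973 to 0.9983. Their log2 differences between the lines were 0.27, 0.24, 0.48, 0.52 and 0.091. Pearson's r does not depend on the size of a difference, so a high r does not require one like that of Cdc20. For Fzr1 they were Sun2, Hsd17b12, Kctd10, Kifc1 and Lrch4, with r from 0.9951 to 0.9981 and log2 differences of 0.14, 0.18, 0.20, 0.38 and 0.21. The 6 points share their libraries and fall into the 2 lines, and r is given as a description.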

How the data were processed

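RNA of 3 parental CT26.mMR1 and 3 M8 samples was analysed from 1 table per sample. The study calls the 3 samples of a line biological replicates, and the labels number them without naming cultures, so the p-values measure the spread between these samples. The authors mapped 101-base single reads from stranded libraries to mm10 and deposited FPKM values from Cufflinks. The submitters' processing notes list TopHat2 2.1.1, Bowtie2 2.2.8, SAMtools 0.1.18 and Cuffdiff 2.2.1. The gene annotation and the strand setting are not given in the sources used here. The study's own test used read counts and could not be rerun on FPKM, which are no counts. How multi-mapping reads and overlapping genes were assigned affects the values of genes with copies.

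limma 3.58.1 (R 4.3.3; lmFit, then eBayes with trend) was applied to log2(FPKM + 1) over the 10597 genes with a mean of at least 1 FPKM, M8 against parental, without covariates, at a Benjamini-Hochberg adjusted p below 0.1, the study's threshold. The pseudocount shrinks the differences of genes with low values. Ratios of 2 genes were compared with exact permutation tests on the log2 ratio of FPKM + 1. Their log2 differences can therefore depart slightly from those of the printed FPKM ratios. No 2 libraries held the same values (Pearson's r across genes, which are not independent, 0.9978 to 0.9983 within a line and 0.9964 to 0.9973 between lines). Alternatives were pseudocounts of 0.1 and 0.5, other filters, median centring, TPM, quantile and upper-quartile scaling, an eBayes fit with no trend, a threshold of 0.05, a replicate block and each replicate left out. The fit was tested on simulated data. Named genes were the 10 genes, Mr1, overlapping genes, the 2 largest absolute differences of each list, Cdk1, Espl1 and Mad2l1, and the 5 genes most like Cdc20 and Fzr1, and the text says where a gene outside this rule was picked from its values. The 10 genes, the lists, the marker genes and the motifs were chosen with earlier results of these data known. Positions and promoters are from RefSeq (GRCm38.p6), and copies are transcripts of the GENCODE M21 set at 90% identity or more over at least 200 bases, searched after the values were seen. Tables were handled with pandas 2.3.3 and scipy 1.17.1 under Python 3.11.15, and figures drawn with matplotlib 3.10.9.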

Additional observations from a re-analysis of the deposited data

How the results depend on the processing

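Of the 10 genes, 9 kept their direction and their call under all 17 alternatives, with adjusted p-values in limma of at most 0.0128. The number higher in M8 was 9 or 10 throughout and the number lower was 0. Pttg1 stayed higher (log2 difference 0.069 to 0.21) but lost its call under 9 of the 17 (limma adjusted p from 0.0505 to 0.467 over all 17), among them no filter (0.163), TPM (0.183), quantile normalization (0.467), upper-quartile scaling (0.231), eBayes without a trend (0.128) and the threshold of 0.05. The median log2 difference of the 10 genes, 0.49, came to 0.43 under upper-quartile scaling and also to 0.43 under quantile normalization, and 0.47 to 0.52 with a replicate left out. Upper-quartile scaling gave 1470 higher and 2769 lower genes in all, against 2250 and 1745, and 22 lower genes in the pathway lists, against 13. Higher genes made up 56.3% of all calls in the main test, 42.9% with TPM and 34.7% with upper-quartile scaling, and the median of all genes tested stayed between -0.049 and 0.025. With 1 replicate left out, 1612 to 2102 genes were higher and 1150 to 1678 lower, fewest without M8 replicate 1. The 12 higher mitotic substrates numbered 12 under every alternative. The cause of these differences was not tested.

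With a replicate block 2171 genes were higher and 1688 lower, all 10 genes were still called, and Pttg1 had a limma adjusted p of 0.0684. The median log2 difference of the 10 genes was 0.49 with the block. Deviations of samples with the same replicate number correlated at 0.10, -0.106 and -0.033, and those with unlike numbers at -0.128 to 0.181. The values of equal numbers thus lay within the range of the others, and so few values cannot show whether a weak pairing exists.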
